A study of Mus musculus with 2 samples.

Results

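The retinoic acid genes described here are the 9 mouse genes Aldh1a2, Cyp26a1, Cyp26b1, Stra6, Crabp1, Crabp2, Rara, Rarb and Rarg, out of 30774 gene identifiers measured on the arrays. They were taken by name from the longer of the deposited tables, and each was present there as 1 identifier. The arrays compared mouse embryonic stem cells (mESCs) of strain B6, derived from the inner cell mass of the E3.5 embryo and grown in serum-containing medium. One culture was given LIF alone, the cytokine that activates Stat3, and the other was given LIF together with CHIR99021 (CHIR), a GSK3 inhibitor that turns on the Wnt/β-catenin pathway. Treatment lasted 12 h, and 1 array was hybridized per condition, called LIF and LIF plus CHIR (or with CHIR) below. The concentration of CHIR is not given in the labels. The labels name the cells only as B6 mESCs, whereas the study's own scheme of the comparison names 46C ESCs, and the sources used here do not settle which were used. The comparison formed part of a search for genes downstream of both the Wnt/β-catenin and the Stat3 pathway.

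Retinoic acid is a small lipid signal made from vitamin A. Retinol enters cells through the membrane receptor Stra6 and is oxidized to retinal by dehydrogenases such as Rdh10. The retinaldehyde dehydrogenase Aldh1a2 then oxidizes retinal to retinoic acid, which is cleared by the cytochrome P450 enzymes Cyp26a1 and Cyp26b1. Inside the cell retinoic acid is carried by the binding proteins Crabp1 and Crabp2, and it acts on the nuclear receptors Rara, Rarb and Rarg. These receptors bind DNA together with an RXR partner, at paired copies of a short sequence, and switch target genes on when the ligand is present. In mESC culture, added retinoic acid is widely used to drive cells out of self-renewal.

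Among target genes of the receptors, Rarb and Cyp26a1 are known to carry such an element close to their start sites, and their sequences are shown because the RNA of both genes serves as a readout of retinoic acid signaling. The receptor element searched was AGGTCA, the variant AGTTCA, the variant GGGTCA or the variant GGTTCA, followed by any 5 bases and then by any of these 4 again, on either strand. Promoter sequences from RefSeq (mouse build GRCm38.p6, 250 bases before to 50 bases after a transcript start) were held for 8 of the 9 genes, in 15 windows. Crabp2 was the gene without a window. The element was found in 2 of the 15 windows, in Rarb and in Cyp26a1, and in 0.0974% of all 32851 promoter windows. Both genes were known carriers before the search, so the 2 of 15 does not measure an enrichment over all windows. The Rarb window is chr14:16575427-16575726 on the minus strand and the Cyp26a1 window is chr19:37697558-37697857 on the plus strand, both written 5′ to 3′ along the gene with the element in capitals.
Rarb: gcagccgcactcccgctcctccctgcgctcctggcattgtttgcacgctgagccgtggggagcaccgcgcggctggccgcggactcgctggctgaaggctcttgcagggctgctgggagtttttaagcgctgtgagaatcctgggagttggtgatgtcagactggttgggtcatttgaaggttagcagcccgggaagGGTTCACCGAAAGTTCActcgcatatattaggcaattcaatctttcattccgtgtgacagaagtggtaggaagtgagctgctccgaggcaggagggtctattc
Cyp26a1: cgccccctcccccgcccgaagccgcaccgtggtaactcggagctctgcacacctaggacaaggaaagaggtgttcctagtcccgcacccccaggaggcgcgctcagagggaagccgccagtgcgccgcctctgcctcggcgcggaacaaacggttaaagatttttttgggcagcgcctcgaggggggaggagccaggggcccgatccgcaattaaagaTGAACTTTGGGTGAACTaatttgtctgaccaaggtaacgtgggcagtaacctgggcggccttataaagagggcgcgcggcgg
The element of Rarb starts 53 bases before the transcript start, and that of Cyp26a1 lies 32 to 16 bases before it, on the opposite strand. With a spacing of 2 bases in place of 5, no window of these genes held the element, and 0.268% of all windows did. The letters CTTTGAA or CTTTGAT, the core bound by the TCF partners of β-catenin, were present on either strand in 1 of the 15 windows, for 1 of the Stra6 starts, and in 8.65% of all windows. A match of letters describes the window only, and binding was not measured in these data.

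The arrays are Illumina mouse beadchips, on which beads with gene-specific probes report RNA as brightness (signal intensity), and a detection p-value compares each signal with negative control beads. A gene was counted as detected at a detection p-value under 0.01, a limit that 9021 identifiers passed in LIF and 9174 with CHIR. Identifiers read as having several probes carry a combined p-value, which does not follow brightness alone. Of these, 260 had signals over 1000 on both arrays and were still not detected, so an undetected gene may be expressed. Signals had been background-subtracted before deposit, so that undetected genes can lie below 0. Brightness depends on the probe, so signals are compared between the arrays and not between genes. Axin2, a feedback target of Wnt/β-catenin signaling, had a signal of 314 in LIF and 1178 with CHIR, and Sp5, another target and one that the study picked from this comparison, had 48.8 in LIF, where it was not detected, and 809.5 with CHIR. Both were higher on the array labelled as treated. Of 10 markers of mESCs, 8 were detected on both arrays: Pou5f1 (12346 in LIF and 11309 with CHIR), Nanog, Zfp42, Esrrb, Klf4, Dppa5a, Utf1 and Tfcp2l1. Their log2 fold changes lay between -0.49 and 0.82, and Tfcp2l1 was the one past 1.5-fold. Sox2 (441 and 400.2, read as having several probes) and Tdgf1 (26.6 and 14.7) did not reach the detection limit. Of 10 endoderm markers 2 were detected (Sox7 and Amn), of 7 neural markers on the array 1 (Nes), of 7 trophectoderm markers 2 (Cdx2 and Krt7) and of 8 fibroblast markers none. The signals summed over each list, with values below 0 taken as 0, were 309.8 in LIF and 286.6 with CHIR for endoderm, 99.2 and 148.6 for neural, 99.1 and 200.5 for trophectoderm, and 247.0 and 245.2 for fibroblast markers. Below 0 on both arrays lay 3 endoderm markers (Foxa2, Afp and Ttr), 1 neural marker (Pax6), 5 fibroblast markers (Col1a1, Col3a1, Postn, Fap and Dcn) and 3 trophectoderm markers (Elf5, Hand1 and Plet1). Most of the fibroblast sum came from Thy1, at 222 in LIF and 225 with CHIR, which was not detected by its p-values of 0.35 and 0.30. Sox1 (-7.23 in LIF and 28.9 with CHIR) and Eomes (-3.9 and 27.2) were undetected on both arrays. With 1 array per condition the spread between cultures is unknown, so the differences below carry no error and were not tested.

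Of the 9 retinoic acid genes, 4 were detected on both arrays (Crabp1, Crabp2, Rara and Rarg), 1 with CHIR only (Aldh1a2) and 4 on neither array (Cyp26a1, Cyp26b1, Rarb and Stra6). The signal of Crabp2 was 2.23-fold lower with CHIR, and Crabp1, Rara and Rarg differed by less than 1.5-fold. Aldh1a2 entered only through the array with CHIR, where its signal was 1.74 times that in LIF, a signal not detected above background. Its value fell under the 1.5-fold limit after a background correction, and other detection rules gave it no value. Of all 9615 identifiers detected on either array or on both, 3.0% had a signal higher with CHIR by 1.5-fold or more and 3.16% a signal lower by as much. Among the 5 retinoic acid genes with a fold change, 1 (Aldh1a2, with that reservation) was higher and 1 was lower by that limit, too few to read a share from. Their median log2 fold change was -0.31, and the median over all detected identifiers was 0.00.

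**Figure D1:**
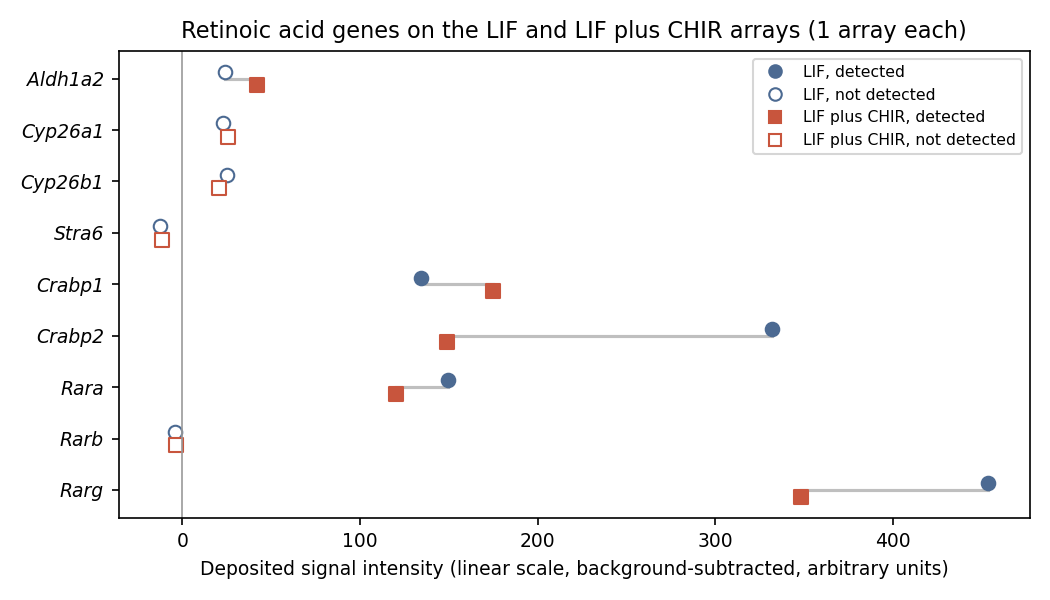
Deposited signal intensity (horizontal axis, linear scale, arbitrary units) of the 9 retinoic acid genes in LIF (circles) and LIF plus CHIR (squares), 1 array each, with no error bars because there are no replicates; filled symbols are detected at a detection p-value under 0.01. Crabp2 goes from 332 in LIF to 149 in LIF plus CHIR, while Stra6 and Rarb lie below 0 on both. Positions are comparable along a row, not between rows.

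The RNA signals of the retinoic acid carriers lay on opposite sides of no change, Crabp2 past the 1.5-fold limit and Crabp1 within it. Crabp2 (Entrez gene 12904, chromosome 3, band 3qF1), which delivers retinoic acid to its receptors in the nucleus, had a signal of 332 in LIF and 149 with CHIR, a log2 fold change of -1.15. It was detected on both arrays, with a detection p-value of 0, that is, above every negative control. Its place among all 30774 identifiers went from the 80.9th percentile in LIF to the 74.8th in LIF plus CHIR. Crabp1 (Entrez gene 12903, chromosome 9, band 9qA5.3), a cytoplasmic carrier of retinoic acid, had a signal of 134 in LIF and 175 with CHIR, a log2 fold change of 0.38 that stayed under the 1.5-fold limit. The log2 fold changes of the carriers differed by 1.54, so that the ratio of Crabp1 to Crabp2 signal was 2.91 times as high with CHIR as without it. In RNA from a whole culture, fewer cells that express a gene and less of its RNA per cell cannot be told apart.

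The size of the Crabp2 difference can be set beside that of other genes of like brightness. Where the brighter of the 2 signals was 200 to 500, 1795 identifiers were detected, of which 3.18% were lower with CHIR by 1.5-fold or more, and 13 (0.724%), Crabp2 included, were lower by at least as much as Crabp2. In the same range, 95% of the log2 fold changes lay between -0.67 and 0.70. For Crabp1, in the range from 100 to 200, 143 of 1387 identifiers (10.3%) were higher by at least as much. These shares describe the pair of arrays and are not tests of the treatment.

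The receptors Rara and Rarg were detected on both arrays and were slightly dimmer with CHIR, within the 1.5-fold limit. Rarg (Entrez gene 19411, chromosome 15, band 15qF3) had a signal of 454 in LIF and 348 with CHIR, a log2 fold change of -0.38. Rara (Entrez gene 19401, chromosome 11, band 11qD) had a signal of 149 in LIF and 120.4 with CHIR, a log2 fold change of -0.31. Differences of this size and direction were common among identifiers as bright: 8.02% were lower by at least as much as Rarg, and 15.1% by at least as much as Rara. Rarb (Entrez gene 218772, chromosome 14, band 14qA2), whose own promoter carries the receptor element shown above, was not detected. Its signal was -4.29 in LIF and -3.38 with CHIR, with detection p-values of 0.50 and 0.49.

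The enzymes and the uptake receptor were at or near background. Aldh1a2 (Entrez gene 19378, chromosome 9, band 9qD), which makes retinoic acid, had a signal of 24.15 in LIF, where its detection p-value was 0.033, and 42.02 in LIF plus CHIR, where it was 0.00078. The ratio of these signals gave a log2 fold change of 0.80, which rests on a signal in LIF that was not above background at the detection limit. Where the brighter signal was under 100, 4.55% of 1825 identifiers were higher with CHIR by 1.5-fold or more. By at least as much as Aldh1a2, 34 (1.86%) were higher, Aldh1a2 included. These shares are not tests of the treatment. The log2 fold change was 0.48, under the 1.5-fold limit, after normexp background correction, and Aldh1a2 had no value when detection on both arrays was required or when detection was set by signal. Among the other cell type markers, Nes (27.7 in LIF and 44.8 with CHIR) and Cdx2 (23.6 and 93.5) also were detected only with CHIR, and their part in the Aldh1a2 value was not tested.

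Cyp26a1 (Entrez gene 13082, chromosome 19, band 19qC2), the main enzyme of retinoic acid breakdown in the early embryo, had a signal of 22.6 in LIF and 25.4 with CHIR. Its detection p-values were 0.037 and 0.033, so that it was detected on both arrays only if the limit is raised to 0.05. At that limit its log2 fold change was 0.17. Cyp26b1 (Entrez gene 232174, chromosome 6, band 6qC3), which clears retinoic acid in limb, hindbrain and gonad, had a signal of 25.0 in LIF and 20.7 with CHIR. Of 936 negative controls, 75 were at least as bright in LIF and 108 with CHIR. Stra6 (Entrez gene 20897, chromosome 9, band 9qB), the uptake receptor, lay below 0 on both arrays, at -12.6 in LIF and -11.8 with CHIR, with detection p-values of 0.93 and 0.92. For the undetected genes, a change between the conditions was not measurable on these arrays, which does not show that their RNA was absent. Aldh1a2, Cyp26a1, Rarb and Stra6 are read as having several probes, so their detection p-values are combined ones that do not follow brightness alone.

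**Figure D2:**
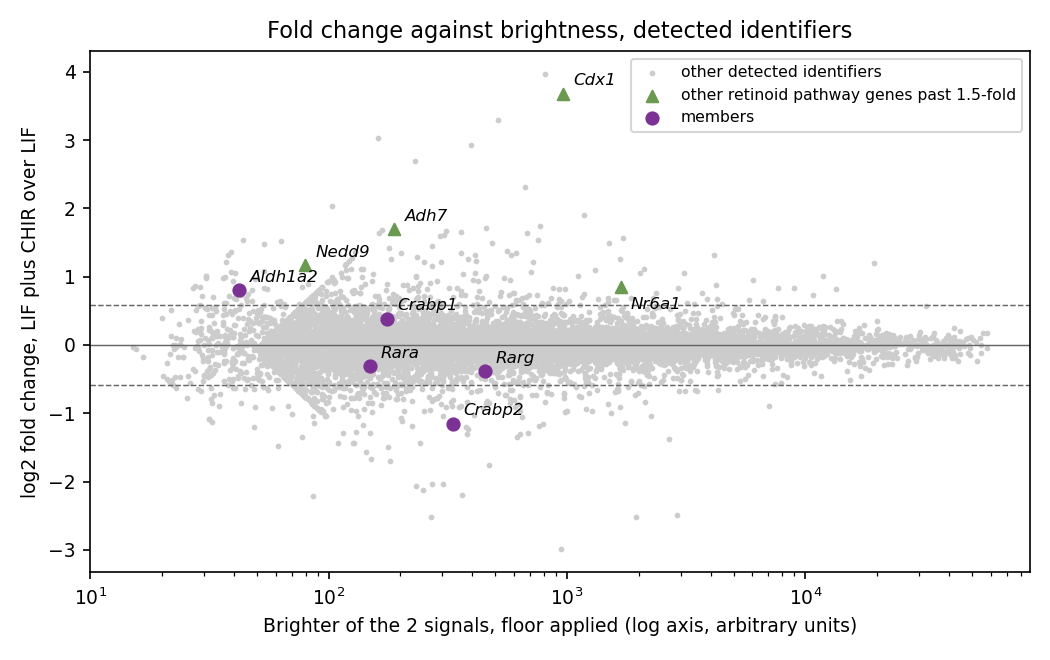
Log2 fold change of LIF plus CHIR over LIF (vertical axis) against the brighter of the 2 signals (horizontal axis, log scale, arbitrary units) for the 9615 identifiers detected on at least 1 array (grey), the 5 retinoic acid genes with a value (circles) and the 4 other retinoid pathway genes past 1.5-fold (triangles); dashed lines mark 1.5-fold. Crabp2 at -1.15 lies below the lower line and Aldh1a2 at 0.80, not detected in LIF, above the upper line at the dim end, whereas Crabp1, Rara and Rarg lie between the lines.

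The rest of the pathway was followed in 3 lists of other genes, 112 in all, of which 109 were on the array and 35 were detected on at least 1 array. Of these 35, 4 (11.4%) were higher with CHIR by 1.5-fold or more and none was lower by as much, beside 3.0% and 3.16% of all detected identifiers. Their median log2 fold change was -0.03. The 4 genes were Adh7, Nr6a1, Cdx1 and Nedd9. The lists were chosen with earlier results of these data known, so the 11.4% is not independent of these data. Its difference from the share over all detected identifiers was not tested.

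Of 35 genes for retinoid transport, synthesis, storage and breakdown on the array, 9 were detected, with a median log2 fold change of 0.06. Adh7, an alcohol dehydrogenase that can oxidize retinol, had a signal of 58.2 in LIF and 188 with CHIR. The dimmer value was detected (detection p-value 0.0058), but the brighter value had a detection p-value of 0.058 and did not pass the limit. Adh7 is read as having several probes and a combined p-value, so this does not place the brighter signal at background. The retinol and retinal dehydrogenases Rdh11, Rdh12, Rdh14 and Dhrs4 were detected on both arrays, with log2 fold changes of 0.03, 0.03, 0.07 and 0.06. Rdh5 was detected in LIF only, with a log2 fold change of 0.10. Rdh10, the main retinol dehydrogenase of the embryo, was not detected (22.9 in LIF and 19.7 with CHIR), and neither were Aldh1a1, Aldh1a3, Lrat and Rbp4.

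Of 29 genes on the array in the list of receptor partners and cofactors, which also holds other nuclear receptors, 14 were detected. All 14 were detected on both arrays, with a median log2 fold change of -0.10. The RXR partners stayed within 1.5-fold where they were detected. Rxra had a signal of 107 in LIF and 88.2 with CHIR, and Rxrb had 1190.15 and 1134, with log2 fold changes of -0.27 and -0.07. Rxrg was not detected on either array (41.2 and 15.3). Nr6a1, an orphan nuclear receptor that represses Pou5f1 when stem cells differentiate, had a signal of 926 in LIF and 1676 with CHIR, a log2 fold change of 0.86. The corepressor Ncor1 was nearly equal on the arrays, at 2313 in LIF and 2274 with CHIR.

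Of 45 genes known to respond to retinoic acid in other settings, all on the array, 12 were detected, with a median log2 fold change of 0.15. Cdx1, a homeobox gene that is a known target of both retinoic acid and Wnt signaling, had a signal of 75.2 in LIF and 963 with CHIR, a log2 fold change of 3.68. Nedd9, a scaffold protein of integrin signaling, had 35.5 and 79.7, a log2 fold change of 1.17. The other detected genes of the list were Meis2, Rec8, Bhlhe40, Egr1, Lamc1, Col4a1, Col4a2, Stra13, Tshz1 and Dlx3. They stayed within 1.5-fold, with log2 fold changes from -0.475 (Col4a1) to 0.352 (Rec8), and Bhlhe40 and Tshz1 were detected only with CHIR. All 10 Hox genes followed in the list, among them the early retinoic acid target Hoxb1, were undetected on both arrays, with signals from -16.05 to 44.8. Where a Hox signal was highest, for Hoxa4 in LIF plus CHIR, its detection p-value was 0.014. Stra8, a germ cell gene switched on by retinoic acid, was below 0 on both arrays (-17.4 in LIF and -17.9 with CHIR). Rarb and Cyp26a1, the genes with the receptor element, were likewise not detected in either condition.

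**Figure D3:**
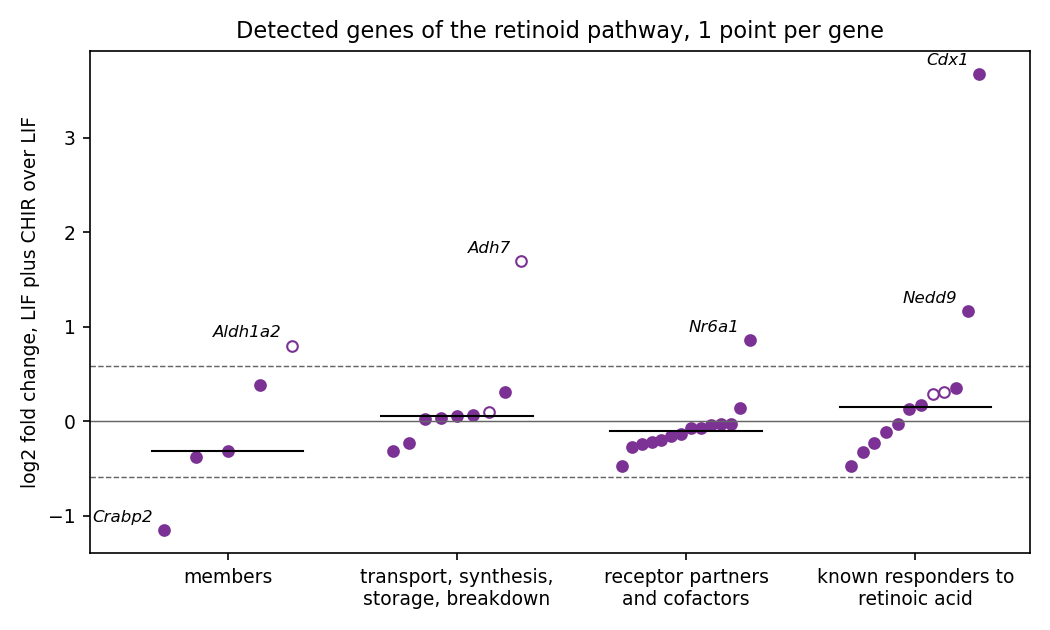
Log2 fold change of LIF plus CHIR over LIF (vertical axis) for the detected genes among the 9 retinoic acid genes and the 3 lists of other pathway genes (horizontal axis), 1 point per gene, filled where the gene was detected on both arrays; black bars are medians and dashed lines mark 1.5-fold. Points past the lines are named: Crabp2 at -1.15 is the lowest and Cdx1 at 3.68 the highest, while the medians lie between -0.31 and 0.15.

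Crabp1, Crabp2, Rara and Rarg were detected on both arrays, with signals above the lowest detected ones. The floor rules, the detection limits and the shorter table therefore could not change their values. Quantile normalization, scaling to equal medians and normexp correction could, and moved them little. The deposited signals were already alike, with medians of 10.5 in LIF and 10.45 with CHIR and 95th percentiles of 3092.7 and 3077.4. Quantile normalization and scaling to equal medians therefore had little to change. The value of Aldh1a2 depended on the processing. Over the main values and the alternatives run, the log2 fold change of Crabp2 lay between -1.16 and -1.08, that of Crabp1 between 0.35 and 0.39, that of Rara between -0.31 and -0.27, and that of Rarg between -0.39 and -0.37. That of Aldh1a2 lay between 0.48 and 0.81 where it had a value.

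**Figure D4:**
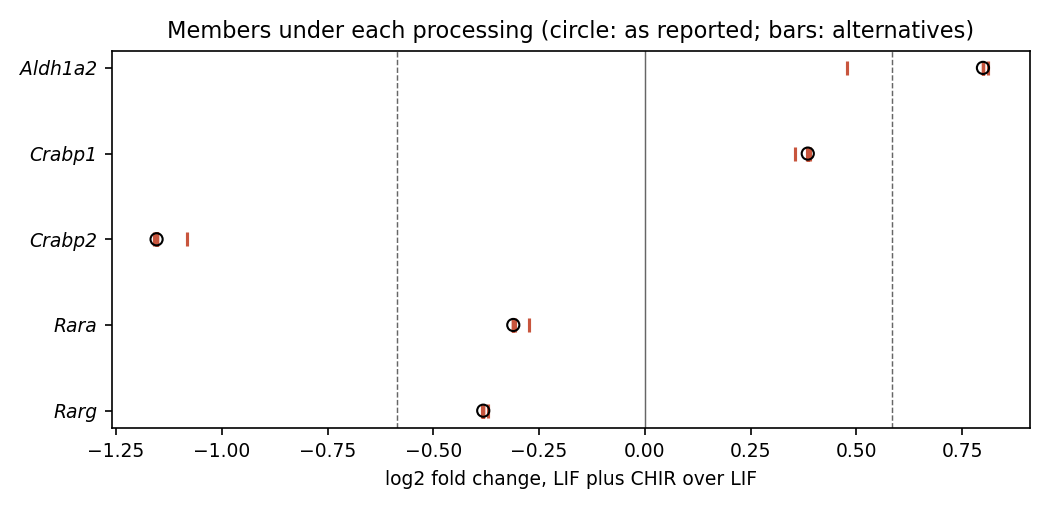
Log2 fold change of LIF plus CHIR over LIF (horizontal axis) for the 5 retinoic acid genes with a value (vertical axis), as reported (circles) and under each alternative processing (bars); dashed lines mark 1.5-fold. Every Crabp2 value lies below the lower line, and 1 Aldh1a2 value, 0.48 after normexp correction, falls inside the lines.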

How the data were processed

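Illumina beadchips measured RNA of B6 mESCs given LIF with or without CHIR, 1 array per condition, grouped from the sample labels. The authors deposited background-subtracted signal intensities on a linear scale, 1 per identifier and array, and a detection p-value for each against the negative control beads. The software and the method of normalization are not given in the sources used here. The shorter deposited table is labelled as normalized and the longer one as not normalized. The 11702 identifiers of the shorter one nevertheless hold the same values as the longer one. Whether the signals used here had already been normalized is therefore not known. The number of arrays limits the precision.

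Detection p-values that were multiples of 1 over 936 (within 0.001 of a whole number after multiplication) were taken to mark identifiers with 1 probe (23264, including those with a p-value of 0 on both arrays, whose probe number cannot be read). The other 7510 were taken to have several probes and a combined p-value, by which 260 of them with signals over 1000 on both arrays were still not detected. Fold changes were ratios of deposited signals for identifiers detected (p-value under 0.01) on either array, with a signal under the lowest detected one of its probe class and array raised to it. Genes were matched by Entrez gene number or symbol through RefSeq. The genes named are the 9 members, pathway genes past 1.5-fold, RXR genes, detected markers, Axin2 and Sp5; undetected pathway genes and markers, and pathway genes within 1.5-fold were named after their values were seen, and the identifiers nearest to a member in signal, set in the rule, are left out because signals are not comparable between probes. From the lists, 2 genes are not reported here. The members and lists were chosen with earlier results of these data known. The ratio and the fold limit were tested on simulated signals that were all set as detected. That test did not exercise the detection rule or the raising of low signals. Tools were Python 3.11.15, numpy 2.4.6, pandas 2.3.3, matplotlib 3.10.9, R 4.3.3 and limma 3.58.1 (normexp with an offset of 16, and quantile normalization). 9 alternatives were set with the design and 1 was added.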

Additional observations from a re-analysis of the deposited data

How the results depend on the processing

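No paired analysis was possible because a single array stands for each condition. As reported, 1 retinoic acid gene was higher (Aldh1a2) and 1 lower (Crabp2) by at least 1.5-fold. Crabp2 was lower by at least 1.5-fold under every alternative run, the 2-fold limit included. The floor rules, the detection limits and the shorter table could not have changed this for Crabp2. The 2-fold result followed from its log2 fold change of -1.15. As deposited, the arrays had nearly equal medians (10.5 in LIF and 10.45 with CHIR). Quantile normalization and scaling to equal medians therefore had little to change. The count of higher genes was 0 with the 2-fold limit, with detection required on both arrays, after normexp and quantile normalization (Aldh1a2 at 0.48), and with detection by signal, an alternative added after seeing the data in which Aldh1a2 was not bright enough to enter. Of the other pathway genes, 4 were higher and 0 lower. The higher count was 6 with 1 floor per array, with no floor, at a detection p-value under 0.05 and after normexp and quantile normalization, each time by the addition of Bhlhe40 and Tshz1 (log2 fold changes of 1.40 and 1.08 with 1 floor per array, against 0.30 and 0.29 as reported, where their signals in LIF were raised to the floor). It was 3 with detection on both arrays, without Adh7, and 3 at 2-fold, without Nr6a1. The lower count was 1 at a detection p-value under 0.05 (Ncoa2, 14.1 in LIF and 6.47 with CHIR) and 1 with detection by signal (Lrp2, 85.3 and 14.4). Cdx1 was past 1.5-fold under every alternative run, and Adh7 had no value when detection on both arrays was required. Over all detected identifiers the counts of 288 higher and 304 lower went to 479 and 519 at a detection p-value under 0.05, and to 78 and 54 at 2-fold. Quantile normalization, scaling to equal medians and the floor rules kept every count within 1.5 times of its reported value. The shorter table repeats the values of the longer one for all detected identifiers, so its counts could not differ. Depth is limited by signal over background, which 4 of the 9 genes did not exceed at the detection limit.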
